A study of Mus musculus with 25 samples.

Results

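Trimethylation of lysine 4 of histone H3 (H3K4me3) was compared in reads scaled to library size. At 132 genes of the autosomes it was lower after 8 days of chemical neural reprogramming than in the starting mouse fibroblasts. At nearly all other marked genes it was higher. The members were chosen by their H3K4me3 values: at least 4 RPM (reads scaled to library size) on day 0 and a lower value on day 8, with genes of chromosomes X and Y left out. These 132 genes were 1.17% of the 11271 autosomal genes with at least 4 RPM on day 0, among 24221 genes analysed. The fall from day 0 to day 8 is therefore how the genes were found, and it is described here without a test. RefSeq (GRCm38.p6, the assembly behind mm10) lists 108 of them as protein coding, 11 as long noncoding RNA, 9 as microRNA and 2 as small nucleolar RNA genes, spread over 18 chromosomes.

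The cells were tdMEFs, as the sample labels name them at all 3 stages. The design description of the series instead puts the name ciNSLC next to day 0, which goes against those labels, and D0 is taken here as the labels and growth conditions give it. On day 0 (D0) they were in medium with 10% fetal bovine serum at 20% oxygen. For day 4 (D4) and day 8 (D8) they had been kept in M9 medium at 5% oxygen. M9 is built on N2 and B27 supplements, with no serum among its listed parts, and holds CHIR99021 (an activator of Wnt signalling), LDN193189 and A83-01 (inhibitors of BMP and TGF-beta receptors), Hh-Ag1.5 (a Hedgehog agonist), retinoic acid, SMER28, RG108, Parnate (an inhibitor of the demethylase LSD1) and bFGF. Oxygen, serum and all the compounds changed together between D0 and the later stages, so their parts cannot be told apart. Each of 4 marks (H3K4me3, H3K27ac, H3K4me1 and H3K27me3) was measured by chromatin immunoprecipitation and sequencing in 1 library a stage, so there are no replicates and no p-values, and every difference is one between single libraries.

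H3K4me3 sits at the start sites of genes that are active or ready to be transcribed, and H3K27ac at active promoters and enhancers. H3K4me1 covers enhancers and the flanks of promoters. H3K27me3 is laid down by Polycomb repressive complex 2 over silent developmental genes. Cultured fibroblasts in serum carry contractile fibres and secrete a collagen-rich matrix, features that are not typical of neural progenitors.

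The H3K4me3 libraries held 12.6 M reads on day 0, 2.77 M on day 4 and 34.9 M on day 8, so 4 RPM corresponds to 51, 11.1 and 139 reads. Summed over all genes, RPM came to 18.9%, 28.6% and 54.0% of these libraries, a difference whose part in the general rise was not tested. After quantile normalization, 52.7% of the autosomal genes of at least 4 RPM at D0 were lower at D8, as were all 132 members. Among the other marks, depth ran from 1.58 M (H3K27ac at D0, where 1 read is 0.632 RPM) to 34.0 M reads (H3K4me1 at D4). Intervals below are exact 95% Poisson intervals of the implied reads. They cover counting error alone, because amplified reads that carry no molecular identifier do not count separate molecules. The D0 libraries also stood apart in sex-chromosome signal: Xist had 1.03, 41.1 and 47.9 RPM of H3K4me3 at D0, D4 and D8, and the mean of 5 Y-linked genes over the autosomal mean was 1.29, 0.485 and 0.347. Each comparison with D0 carries this difference, whose part in the results was not tested, and D4 against D8 is the comparison that uses no D0 value, though D8 was also used to choose the members. All 11 fibroblast markers had at least 4 RPM of H3K4me3 at D0 and 10 of 11 at D8, while 2 of 8 neural stem markers did so at D0 and 8 of 8 at D8. In such bulk chromatin, fewer cells carrying a mark and less of the mark per cell cannot be told apart. The region counted around each gene is not given in the sources used here.

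Among the members, the median H3K4me3 was 5.86 RPM on day 0, 3.25 on day 4 and 3.87 on day 8. The 11139 non-members of at least 4 RPM at D0 had medians of 13.3, 20.6 and 41.2 RPM. The ratio of D8 to D0 had a median of 0.604 in the members and 3.04 over all 11271 genes, and its lowest value was 0.162. In 48 members the D8 value was at least 2-fold below D0, in 24 at least 3-fold, and in 24 it lay within 10% of D0. The Poisson intervals of the 2 stages were apart in 84 members (0.745% of the 11271 genes), and 78 were at least 1.5-fold lower (0.692%). Most members had little of the mark to begin with, as 94 lay between 4 and 8 RPM at D0 and 38 at 8 RPM or more, the latter 0.425% of the 8950 genes at that level. The 94 were among 2321 genes of 4 to 8 RPM, so the share of members was larger at low levels. In the ranking of all autosomal genes the median member stood at percentile 55.8 at D0, 43.0 on day 4 and 42.2 on day 8, and the members of 8 RPM or more went from percentile 80.6 to 53.2 and 49.1.

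**Figure D1:**
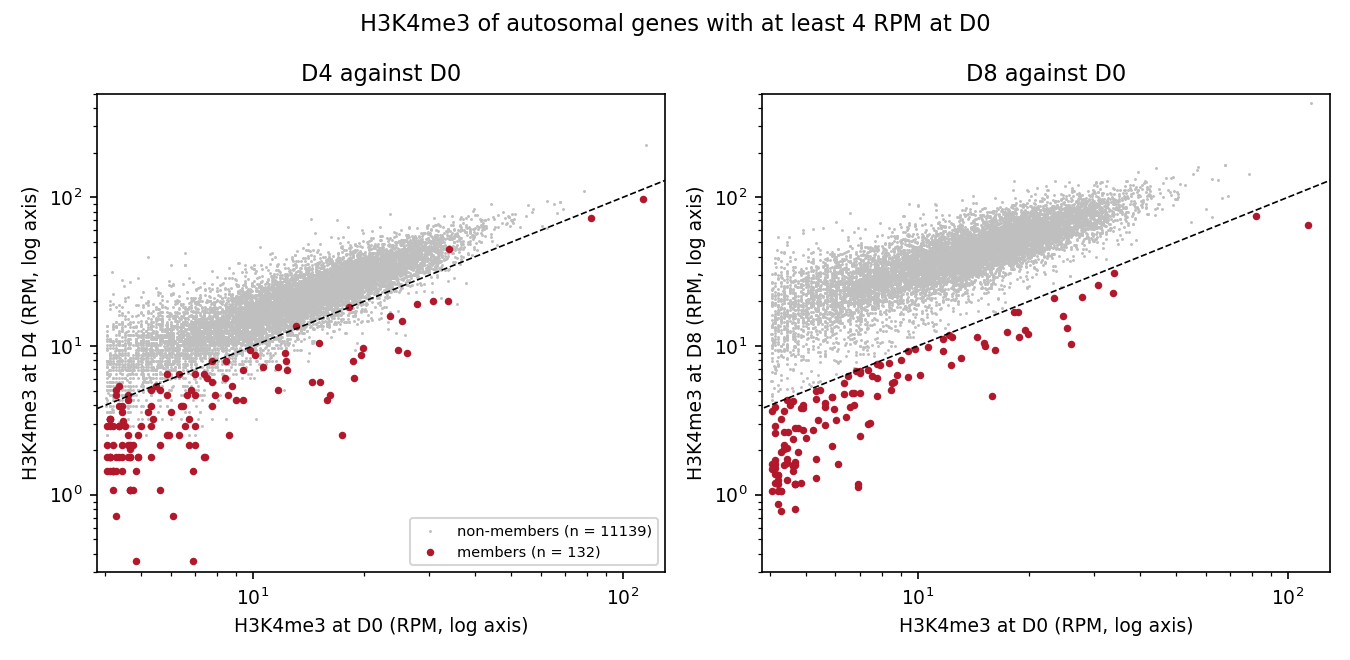
H3K4me3 on day 4 (left) and D8 (right) against D0, in RPM on log axes, for autosomal genes with at least 4 RPM at D0; red points are the 132 members, grey points the 11139 non-members, and the dashed line marks equal values. At D8 the members lie below the line by the rule that chose them, and at D4, which the rule did not use, 122 of 132 lie below it.

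The thresholds cut through a continuous range. The genes just inside the D0 limit were Slc17a2, Far1os and Cntnap5b (each 4.04 RPM), and 1600019K03Rik, Srek1 and Evi2b (each 3.96 RPM) fell just outside. Tnfsf11 (6.81 RPM at D0 and 6.80 at D8), Mcts2 (9.42 and 9.30) and Ccnb2 (7.76 and 7.63) were barely members. Cx3cl1 (10.2 and 10.3 RPM), Arid3b (4.75 and 4.82) and Il6 (4.12 and 4.19) were barely not.

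The lower level was already present on day 4. At D4, 122 of the 132 members were below D0, against 6.65% of all genes of at least 4 RPM, and in 33 of them the intervals were apart, against 0.461%. The D0 library is shared with the rule, so these counts are not independent of it. In 44 members D4 lay between D8 and D0, and in 78 it was below both. The latter held 30 of the 38 members of 8 RPM or more, whose medians were 15.2 RPM on day 0, 7.93 on day 4 and 10.9 on day 8.

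Between D4 and D8, 54 members were lower at the later stage, against 0.825% of the genes of at least 4 RPM. The rule picked genes for a low D8 value, so nothing is read from that difference in share. In the other direction, 9 members had more H3K4me3 at D8 than at D4 with intervals apart. The widest gap was at Tagln, which encodes transgelin, an actin-binding protein of smooth muscle. It had 17.4 RPM on day 0 (interval 15.2 to 19.9), 2.52 on day 4 (1.01 to 5.20) and 12.3 on day 8 (11.2 to 13.6), a dip that returned most of the way. The other 8 were Rgs4 (a regulator of G protein signalling), Gas2, Rspo2, Hoxc9, Fam111a, Nr4a1, Sim1 and Ifi27. Nr4a1, an immediate early nuclear receptor that serum induces, had 18.7, 7.93 and 16.8 RPM in the order D0, D4, D8. In 5 members D8 was below D4 with intervals apart: BC018473, Olfr345, Mir101c, 2810417H13Rik and Fgf7. Fgf7, a growth factor that fibroblasts send to epithelia, had 34.0 RPM on day 0 (30.8 to 37.3), 45.1 on day 4 (37.5 to 53.7) and 30.8 on day 8 (29.0 to 32.7). It was thus highest on day 4, and it was among the 10 members that were not lower at D4. Lum, the matrix proteoglycan lumican, was another of them, with 18.2, 18.4 and 16.8 RPM and overlapping intervals.

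Genes of the contractile apparatus made up 5 of the members. Of the 22 smooth muscle and contractile genes with at least 4 RPM on day 0, 22.7% were members, beside 1.17% of all genes, and the median D8 to D0 ratio of those 22 was 1.98. At 8 RPM or more the share was 18.8% of 16, beside 0.425% of all genes. Acta2, the smooth muscle actin of myofibroblasts (chr19:34240336-34255585), had 33.8 RPM of H3K4me3 on day 0 (30.7 to 37.2), 20.2 on day 4 (15.3 to 26.2) and 22.7 on day 8 (21.1 to 24.3). Its intervals at D4 and D8 overlapped, and both lay below that of D0. The 2 other marks of active chromatin at Acta2 were not lower: H3K27ac was 6.95, 8.09 and 12.3 RPM and H3K4me1 4.85, 5.85 and 8.43 RPM. Lmod1, the actin filament nucleator leiomodin, had 8.55, 4.69 and 5.68 RPM of H3K4me3. Cnn1, calponin, had 6.57, 2.88 and 3.90 RPM, and Actg2, the enteric smooth muscle actin, 4.75, 1.08 and 1.95. As point values all 5, Tagln included, were lowest at D4, and their D0 and D8 intervals were apart.

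Matrix genes were the other large group of fibroblast function. Of 35 fibroblast matrix genes of at least 4 RPM, 14.3% were members (Postn, Aspn, Lum, Abi3bp and Ecm2), and of 7 genes of the small leucine-rich proteoglycans, which bind collagen fibrils, 3 were (Aspn, Lum and Ecm2). At 8 RPM or more the share was 15.4% of 26 matrix genes, beside 0.425% of all genes. The remaining genes of both lists were higher at D8, with ratios of up to 5.88 and 4.33. Aspn, asporin, which binds TGF-beta (chr13:49544443-49567565), had 26.1 RPM on day 0 (23.3 to 29.0), 9.01 on day 4 (5.83 to 13.3) and 10.3 on day 8 (9.29 to 11.5). The later stages were alike and far below D0. In the other marks Aspn had 8.21, 6.67 and 11.4 RPM of H3K27ac and 5.34, 8.20 and 11.0 RPM of H3K4me1, so H3K4me1 was higher where H3K4me3 was lower. Higher H3K4me1 was general, as only 3.98% of the autosomal genes of at least 4 RPM of H3K4me3 at D0 had less of it at D8.

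Postn, periostin, a matrix protein of wound fibroblasts (chr3:54359267-54391041), had 27.9, 19.1 and 21.4 RPM of H3K4me3, 9.48, 4.01 and 5.59 RPM of H3K27ac and 4.85, 7.64 and 9.47 RPM of H3K4me1. Lrrc17, a secreted leucine-rich repeat protein (chr5:21543527-21575911), had 25.3, 14.8 and 13.3 RPM of H3K4me3, and was 1 of 13 members with H3K27ac at least 2-fold lower at D8 (11.4, 3.13 and 2.80 RPM). Abi3bp, a matrix protein that binds a cytoskeletal adaptor, had 15.2, 5.77 and 9.96 RPM of H3K4me3. Of 21 collagen genes, 2 were members by a small margin: Col6a3, a chain of type VI collagen, with 23.4, 15.9 and 21.1 RPM, and Col5a3, a chain of type V collagen, with 8.39, 6.13 and 7.75. For both, the D0 and D8 intervals overlapped. P4ha3, a collagen prolyl hydroxylase, had 12.3, 7.93 and 7.43 RPM.

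The 250 bases before the RefSeq start of Aspn, Postn and Lrrc17, the matrix members and a secreted one among the 8 highest at D0, are shown because these genes had high levels to lose, 5′ to 3′ on the gene's strand (all plus) with each CG in capitals. RefSeq promoters of GRCm38.p6 were matched for 87 of the 132 members (65.9%), too few to compare members with other genes.
Aspn (chr13:49544193-49544442): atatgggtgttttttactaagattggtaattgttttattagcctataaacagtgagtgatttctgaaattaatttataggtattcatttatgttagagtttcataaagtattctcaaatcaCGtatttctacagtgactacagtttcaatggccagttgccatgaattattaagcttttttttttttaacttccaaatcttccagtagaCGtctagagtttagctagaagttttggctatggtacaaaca
Postn (chr3:54359017-54359266): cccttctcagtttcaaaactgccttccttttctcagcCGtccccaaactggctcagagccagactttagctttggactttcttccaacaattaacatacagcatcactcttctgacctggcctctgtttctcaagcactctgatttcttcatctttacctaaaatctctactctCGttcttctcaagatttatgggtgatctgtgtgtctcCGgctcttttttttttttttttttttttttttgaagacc
Lrrc17 (chr5:21543277-21543526): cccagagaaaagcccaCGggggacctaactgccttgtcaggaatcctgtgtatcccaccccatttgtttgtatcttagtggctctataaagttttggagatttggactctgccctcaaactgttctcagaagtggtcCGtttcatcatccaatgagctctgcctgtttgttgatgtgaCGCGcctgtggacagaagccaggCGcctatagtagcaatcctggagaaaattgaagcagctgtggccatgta
These stretches hold 2, 3 and 5 CG dinucleotides. The other members of the 8 highest with a promoter in the table were Acta2 with 4, Fgf7 with 6 and Igsf10 with 13, so the 3 shown do not stand for all of them. Over the 27025 promoters of the same reference the median in such a stretch was 6 (quartiles 2 and 16), and 91.7% held at least 1.

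Secreted signals of the BMP and CCN families and a modulator of Wnt signalling were also among the members. Of 16 WNT ligand and Frizzled genes of at least 4 RPM, 0 were members, too short a list to expect any at the 1.17% of all genes. Rspo2, a secreted amplifier of Wnt signalling, had 24.7, 9.38 and 15.8 RPM of H3K4me3. Bmp5, a BMP ligand, had 5.23, 3.61 and 2.73 RPM of H3K4me3, and Wisp2, a matricellular protein of the CCN family, 4.67, 1.8 and 1.58. H3K27ac was 5.05, 2.66 and 1.65 RPM for Bmp5 and 7.58, 2.01 and 1.40 for Wisp2. Its D0 and D8 intervals overlapped at Bmp5 and were apart at Wisp2.

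Several members encode transcription factors, gathered here after their values were seen and not from a fixed list. Among families of such factors, 0 of 6 T-box, 0 of 17 forkhead and 0 of 7 Sox genes of at least 4 RPM were members. Families this small would mostly hold none at the 1.17% of all genes. Meox1, a homeobox factor of the somites (chr11:101877510-101894354), had the lowest D8 to D0 ratio of all members. It had 6.89 RPM of H3K4me3 on day 0 (5.52 to 8.5), 1.44 on day 4 (0.393 to 3.69) and 1.12 on day 8 (0.796 to 1.53). H3K27me3 at Meox1 was 1.37 RPM on day 0 (0.551 to 2.82), 2.93 on day 4 and 5.32 on day 8 (4.07 to 6.83), highest where H3K4me3 was lowest. Its paralogue Meox2 had 19.9, 9.74 and 11.96 RPM of H3K4me3, with H3K27me3 of 3.13, 2.66 and 3.75 RPM, a narrower range than at Meox1. Alx4, a factor of limb and skull mesenchyme, had 7.76, 5.77 and 6.05 RPM. Of 28 Hox genes of at least 4 RPM, 2 were members (7.14%), and of the 8 at 8 RPM or more 0 were. The 2 were the neighbours Hoxc9 (5.62, 1.08 and 3.87 RPM) and Hoxc10 (6.34, 2.52 and 4.73), with the microRNA gene Mir196a-2 within 10 kb of both. The counts of these 3 can share reads. Sim1 (6.97, 2.88 and 6.57 RPM), a basic helix-loop-helix factor, and Dmrt2 (4.91, 1.8 and 4.02), a factor of somite development, carried more H3K27me3 than the median member at every stage.

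S100a4, a calcium-binding protein used as a fibroblast marker (chr3:90603770-90606045), had more of 2 other marks at the stages where it had less H3K4me3. Its H3K4me3 was 5.86 RPM on day 0 (4.60 to 7.36), 2.52 on day 4 (1.01 to 5.20) and 2.12 on day 8 (1.67 to 2.67). H3K4me1 was 5.01, 9.96 and 14.3 RPM, H3K27me3 0.391 RPM (2 reads), 1.74 and 3.58 RPM, and H3K27ac 12.004, 12.2 and 10.8 RPM. It was 1 of 4 members among 40 fibroblast surface and identity genes of at least 4 RPM (10%, beside 1.17% of all genes), with Meox1, Meox2 and Alx4. At 8 RPM or more the share was 3.03% of 33, beside 0.425% of all genes. Most of the 40 were higher at D8, with a median D8 to D0 ratio of 2.37. The D0 and D8 intervals of Alx4 overlapped. Cspg4, the NG2 proteoglycan of pericytes and mural cells, had 12.4, 6.85 and 11.4 RPM of H3K4me3, and its D0 and D8 intervals overlapped.

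Receptors included several known best from immune cells. Cmklr1, the chemerin receptor (chr5:113612355-113650475), had 6.89 RPM of H3K4me3 on day 0 (5.52 to 8.5), 0.361 on day 4 (0.00913 to 2.01, a single read) and 1.18 on day 8 (0.844 to 1.60). Its H3K27ac was 6.32 RPM on day 0 (3.03 to 11.6), 0.767 at D4 and 1.27 on day 8 (0.610 to 2.34), also apart. Gpr183, an oxysterol receptor that guides B cells, had 4.83, 0.361 and 1.20 RPM of H3K4me3, Cd244, a receptor of natural killer cells, 4.28, 1.44 and 0.775, and Il1rl1, the receptor of interleukin 33, 4.46, 3.13 and 2.64. As point values, Gpr183 and Cd244 were also below D0 at D8 in all the other marks, H3K27me3 included. H3K27me3 was 1.96 RPM at D0 and 1.92 at D8 for Gpr183, and 3.72 and 3.14 for Cd244. The D0 and D8 intervals overlapped in each of these marks at both genes, except for H3K4me1 at Cd244 (2.36 and 1.14 RPM). Of 9 macrophage and blood markers 0 had 4 RPM of H3K4me3 at any stage, and their summed H3K4me3 was 12.7, 15.5 and 9.74 RPM. Of 7 endothelial markers, 1 reached 4 RPM at each stage. A pair of C1q/TNF-related genes, which encode adiponectin-like secreted proteins, were members of 4 at that level: C1qtnf3 (6.10, 0.721 and 1.61 RPM) and C1qtnf7 (4.99, 2.88 and 2.42). All 4 lay below 8 RPM at D0.

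**Figure D2:**
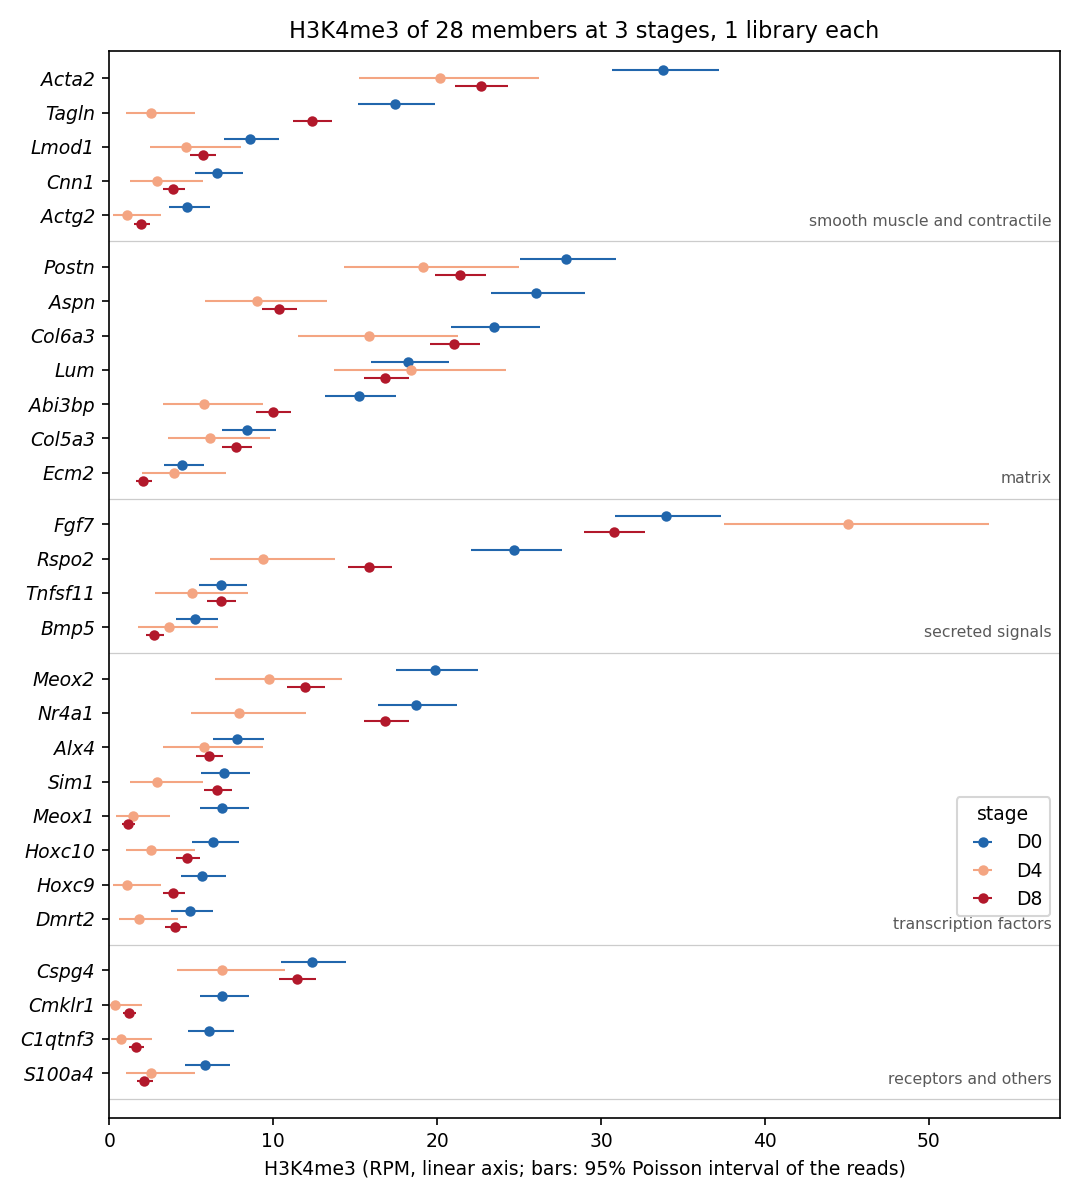
H3K4me3 of 28 members, in RPM on a linear axis, at D0 (blue), D4 (orange) and D8 (dark red), 1 library each; bars are exact 95% Poisson intervals of the reads, and genes are grouped by role. D4 is the lowest point at Tagln, Rspo2, Nr4a1 and Hoxc9, the highest at Fgf7, and close to D8 at Aspn.

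Of 90 mitosis and spindle genes of at least 4 RPM, 2 were members (2.22%, beside 1.17% of all genes): Ccnb2, a mitotic cyclin, and Iqgap3, a scaffold of proliferating cells, with 8.63, 2.52 and 5.77 RPM. Of 92 DNA replication genes, 28 housekeeping genes, 86 ribosomal protein genes, 162 mitochondrial ribosomal and respiratory genes and 297 zinc finger Zfp genes at that level, 0 were. Most of them, in the same order 77, 27, 85, 159 and 226, had 8 RPM or more, where 0.425% of all genes were members. Lists of this size and level would hold few members or none, so nothing is read from these counts. The 21 neural stem and progenitor genes and 7 neuronal genes at 4 RPM or more had 0 members as well, and lists this short would hold fewer than 1 at the share of all genes. Their lowest D8 to D0 ratios were 1.73 and 1.91.

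**Figure D3:**
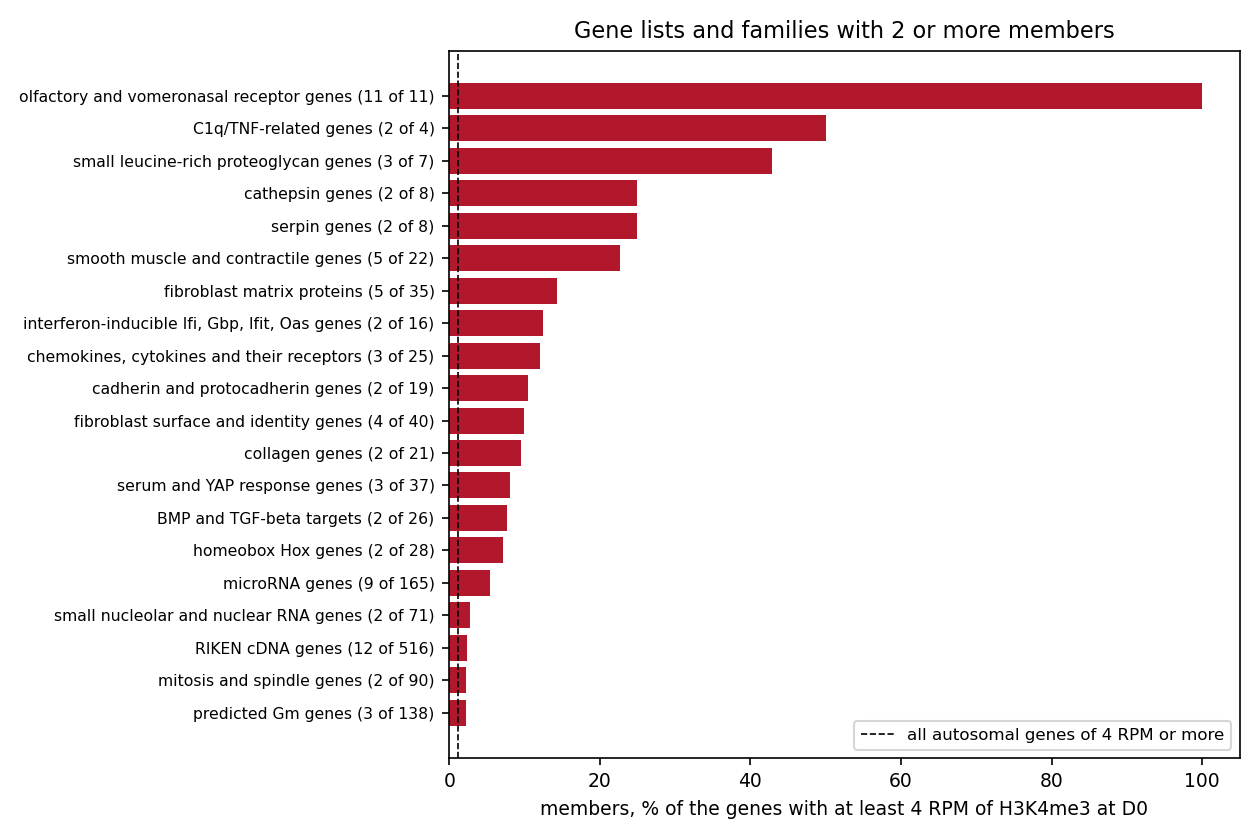
Members as a percentage of the genes with at least 4 RPM of H3K4me3 at D0, for the 20 gene lists and families with 2 or more members; numbers in brackets give members of genes at that level. The dashed line is the 1.17% of all autosomal genes at that level, and the bars run from 2.17% for predicted Gm genes to 100% for olfactory and vomeronasal receptor genes. Members were 94 of 2321 genes of 4 to 8 RPM at D0 and 38 of 8950 of 8 RPM or more. The line takes no account of this difference, so lists of mostly low genes are not matched by it.

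The microRNA genes Mir15b and Mir16-2, which lie next to each other on chromosome 3, shared their course. Mir15b had 6.73, 3.25 and 4.02 RPM of H3K4me3 and Mir16-2 5.94, 2.52 and 3.79 RPM. They lie within 10 kb of each other, so their counts can share reads, and they were 2 of the 9 members among 165 microRNA genes of at least 4 RPM (5.45%). At 8 RPM or more the share was 0.885% of 113, which is Mir101c alone, beside 0.425% of all genes at that level, and the other 8 microRNA members lay between 4.12 and 6.73 RPM at D0. The mature 5p products of Mir15b and Mir16-2, known to restrain cyclins and the survival factor Bcl2, are shown because they have the same seed (bases 2 to 8, in capitals), as listed by RefSeq.
mmu-miR-15b-5p: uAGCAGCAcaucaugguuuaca
mmu-miR-16-5p: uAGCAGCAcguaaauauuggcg
Among the others, Mir199a-1, a microRNA of mesenchymal cells, had 5.38, 3.25 and 3.18 RPM of H3K4me3 beside 15.8, 7.14 and 12.2 RPM of H3K27ac.

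All 11 olfactory, vomeronasal and trace amine receptor genes with at least 4 RPM at D0 were members. These chemoreceptors are normally active only in sensory neurons, and their values were low: 4.12 to 4.67 RPM at D0 (median 4.43), 1.08 to 4.33 on day 4 (median 1.8) and 0.861 to 1.75 on day 8 (median 1.26). Over the whole autosomal family of 1442 genes the median was 1.74, 1.44 and 1.12 RPM, and 86% were lower at D8. Among all 11886 autosomal genes below 4 RPM on day 0, 60.9% were lower at D8. The 11 members are the highest of the family at D0, and lower values at D8 were the rule among genes with little of the mark. Of the 11, 6 were also below D0 at D8 in all 3 other marks as point values. Olfr207, Olfr208 and Olfr209 have identical values in every library, so the 3 are not separate measurements.

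A small set of members carried signal in every mark. Mir101c had 56.3 to 124 RPM across the 12 libraries, with 114, 97.7 and 64.8 RPM of H3K4me3, and Sfi1, a centrosome protein gene, 34.8 to 82.2 RPM, with 82.2, 72.5 and 74.4 RPM of H3K4me3. Only 8 of the 11271 genes (0.071%) reached 8 RPM in each of the 4 marks at some stage. At Mir101c and Sfi1 all 4 antibodies gave signal of the same order. Ugt1a1, Mroh2a and 6430706D22Rik adjoin on chromosome 1, with Trpm8 nearby, and had 4.53 to 8.79 RPM of H3K4me3 at D0 and D8 beside 8.14 to 10.2 RPM of H3K27ac and 8.55 to 13.1 RPM of H3K27me3 at D8. Palmd and the overlapping 4930455H04Rik (7.36 and 7.44 RPM at D0) also count much the same reads. In all, 16 members lay within 10 kb of another member.

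The activity mark H3K27ac leaned the same way as H3K4me3 at the members, while the other 2 marks did not share a single direction. Changes are log2 ratios with a pseudocount of 1.53 RPM for H3K27ac, 1.63 for H3K4me1 and 1.30 for H3K27me3, counted from 2-fold upward among genes whose larger value reached the median of the mark. This scale understates changes of low genes. H3K27ac was at least 2-fold lower at D8 in 13 of 107 members (12.1%), against 2.33% of all autosomal genes and 0.819% of those with at least 4 RPM of H3K4me3 at D0. It was at least 2-fold higher in 2 members, against 19.6% and 26.1% of the same genes. The median log2 change was -0.34 in members, 0.34 over all autosomal genes and 0.56 in non-members of at least 4 RPM of H3K4me3. Relative to the median of all autosomal genes, 25.2% of the members were lower and 0.935% higher, against 9.09% and 9.78%. As point values, 74 of 132 members had less H3K27ac at D8 than at D0, against 19.8% of the genes of at least 4 RPM. Among members of 8 RPM or more of H3K4me3 these were 20 of 38, and their median log2 change was -0.16. Among those of 4 to 8 RPM they were 54 of 94, with a median of -0.39.

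The members with lower H3K27ac included Cmklr1, Gm10536, Cd244, Wisp2, Lrrc17, Bmp5, Gas2, Fgf7, Olfr479 and the inseparable Olfr207, Olfr208 and Olfr209. The D0 and D8 intervals of H3K27ac overlapped at Cd244, Bmp5, Olfr479 and those inseparable genes. Gas2, a growth arrest protein that binds actin, had 13.3 RPM of H3K27ac on day 0 (8.21 to 20.3), 4.96 at D4 and 5.47 on day 8 (3.96 to 7.36), beside 18.8, 6.13 and 11.4 RPM of H3K4me3. Fgf7 had 15.2, 8.21 and 6.36 RPM of H3K27ac, so its H3K27ac was below D0 on day 4, when its H3K4me3 was above. At D4, 17 of 111 members were at least 2-fold lower (15.3%), against 3.92% of all autosomal genes and 2.94% of those with at least 4 RPM, and 2 were higher, against 5.49% and 6.16%. The D0 library of this mark is the shallowest, and 1 read more or less moves a member at 4.42 RPM, or 7 reads, by 0.632 RPM. From D4 to D8, 0 of 97 members past the filter were called in either direction, against 7.16% of all genes higher and 0.0333% lower.

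H3K4me1 was higher at most members, though less so than elsewhere. Its median log2 change at D8 was 0.33 in members and 0.47 over all autosomal genes. At least 2-fold more H3K4me1 was found in 7 of 107 members (6.54%), against 2.38% of all autosomal genes and 1.64% of those with at least 4 RPM, and at least 2-fold less in 0, against 0%. At D4, 0 of 108 members were called, against 0.0888% and 0.0298% higher. The 7 were S100a4, Lrrc17, Ip6k2 (an inositol phosphate kinase), Itgbl1, Col6a3, Cspg4 and Kcne4 (a potassium channel subunit). Col6a3 had 2.40, 5.82 and 6.62 RPM and Cspg4 3.10, 6.37 and 8.23 RPM of H3K4me1. Relative to the median of all autosomal genes, 0% of the members were higher and 13.1% lower, against 0.0409% and 1.5%. The members of 8 RPM or more of H3K4me3 had median H3K4me1 of 3.65, 5.21 and 5.78 RPM, and 9 of those 38 were below D0 at D8. Members of 4 to 8 RPM had medians of 3.08, 2.73 and 3.49 RPM.

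H3K27me3 was much the same at the stages for most members. The median log2 change at D8 was -0.02 both in members and over all autosomal genes. At least 2-fold more was found in 7 of 117 members (5.98%), against 3.51% of all autosomal genes and 3.12% of those with at least 4 RPM, and at least 2-fold less in 2 (Palmd and Rag2), against 1.59% and 2.44%. At D4, 3 of 118 members were higher, against 1.76% and 1.42%, and 3 lower, against 1.45% and 2.36%. The 7 were Meox1, S100a4, P4ha3, Trpm8, Prss35 (of the serine protease family), Nr4a1 and 4931408C20Rik. P4ha3 had 0.391, 2.33 and 2.27 RPM of H3K27me3, and Nr4a1 0.783, 1.41 and 3.31 RPM, although its H3K4me3 at D8 was back near D0. At D0 the P4ha3 value was 2 reads, as was that of Prss35. At D8 both genes lay within the quartiles of all autosomal genes (1.40 and 2.53 RPM). In level, members carried more H3K27me3 than non-members of at least 4 RPM from the start, with medians of 2.35 RPM against 1.57 at D0 and 2.35 against 1.57 at D8. These sets were not matched in H3K4me3 level. Members of 4 to 8 RPM of H3K4me3 had 2.64 and 2.49 RPM of H3K27me3 at D0 and D8. Those of 8 RPM or more had 1.96 and 1.92, nearer to the 1.76 and 1.83 of all autosomal genes. From D4 to D8, 0 members were called in H3K4me1 or H3K27me3, against at most 0.107% of all genes.

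**Figure D4:**
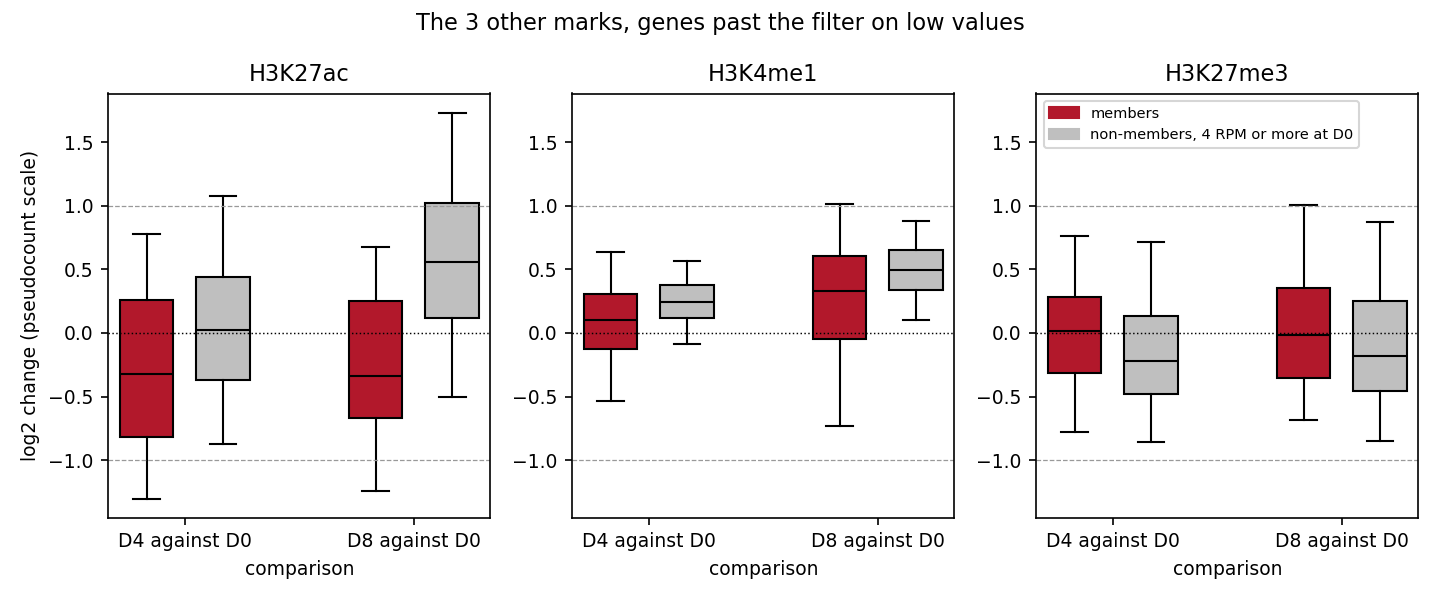
Log2 change of H3K27ac, H3K4me1 and H3K27me3 at D4 and D8 against D0 (pseudocount scale), for members (red) and non-members of at least 4 RPM of H3K4me3 at D0 (grey) past the filter on low values; boxes show quartiles and median, whiskers the 5th and 95th percentiles, dashed lines 2-fold. The member medians of H3K27ac lie below 0 at both stages (-0.33 and -0.34), where the non-members reach 0.56 at D8.

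As point values, the 3 other marks were all below D0 at D8 in 17 of the 132 members (12.9%), against 0.559% of the genes of at least 4 RPM. This count takes no account of counting error. Of these 17, 14 had 4 to 8 RPM of H3K4me3 at D0. The 3 of 8 RPM or more included Ifi27 and Mir101c. Ifi27, an interferon-inducible mitochondrial protein, had 11.7, 5.05 and 11.2 RPM of H3K4me3, so its value at D8 was near that of D0. A lower point value in every mark, the Polycomb mark included, sets these 17 apart from members such as Meox1, S100a4 and Aspn, where at least 1 mark was higher.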

How the data were processed

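The labels describe 25 libraries, of which 12 (4 marks at D0, D4 and D8) match columns of the deposited table; the 8 value columns left over fit no label and were set aside. Per the submitters' processing notes, the build was mm10 and the tools were Bowtie 1.1.0, SAMtools 0.1.19, CASAVA 1.8.4 and bedtools; for their roles, duplicate removal or input subtraction the labels give nothing. The authors deposited RPM per gene, a unit inferred from the values: in each column 93.5% to 94.7% of entries come to whole reads within a tolerance of 0.02, so reads are implied, not recovered, and no count model was run. Fragments of 200 to 400 bp, 13 PCR cycles and single reads of 50 cycles were used, per the labels.

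Of 24453 symbols, 27 turned into dates and 205 at 0 in all 12 columns were left out. RefSeq gave chromosomes for 23175 symbols directly and 940 through a synonym; 106 had none, among them the member Olfr207, which was kept. The rule left out 12 genes of chromosomes X and Y. The pseudocount of a mark is the 25th percentile of its positive values, and the filter its median (2.18 RPM for H3K27ac, 2.49 for H3K4me1, 1.76 for H3K27me3). Steps were tested on simulated data. The members, the 18 gene lists and 35 families were chosen with earlier results of these data known, and support nothing independently. Named genes are the 20 members with the lowest log2 change, the 15 highest at D0, up to 4 of each list and 3 of each family, the 4 largest gains and losses of each other mark, the 5 highest and lowest changes at D4 and those nearest the thresholds; other members named were chosen after their values were seen, and some members are not reported here. Of the members, 25 were in a list, 64 in a family and 50 in neither. Values used Python 3.11.15, pandas 2.3.3, NumPy 2.4.6, SciPy 1.17.1 and Matplotlib 3.10.9.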

Additional observations from a re-analysis of the deposited data

How the results depend on the processing

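The number of members depends on the limits: it was 2546 with a D0 minimum of 2 RPM, 38 with 8 RPM, 84 with intervals apart and 78 with at least a 1.5-fold fall, against 132; leaving out the gene with no chromosome gave 131 and counting identical genes once 130. The share of members below D0 at D4 was 92.4% and became 100% with quantile normalization or with D4 divided by the median ratio to D0. Quantile normalization also put 53.3% of all autosomal genes of at least 4 RPM below D0 at D4, against 6.65% without it. Dividing by the median ratio puts about as many of these genes below D0 as above it by construction. H3K27ac was at least 2-fold lower at D8 in 12.1% of members; this was 22.4% and 0% with the pseudocount divided and multiplied by 4, 28.6% with quantile normalization and 25.2% relative to the median of all genes, against 7.14%, 0.0307%, 6.67% and 9.09% of all autosomal genes. H3K4me1 was at least 2-fold higher in 6.54%, and in 0% with the larger pseudocount, quantile normalization or the median as reference. H3K27me3 was at least 2-fold higher in 5.98%, in 0% with the larger pseudocount and in 12.1% of members of 8 RPM or more. The larger pseudocount leaves few genes past 2-fold by construction; the cause of the other shifts was not tested. The other 25 of these 40 alternative values stayed within 1.5 times (counts) or the 95% binomial interval (shares), among them all those without genes high in every mark, without members lower in all 3 other marks or without members near another, chosen after seeing the data. No paired analysis was possible because each group is 1 library. The promoter comparison was not run, since fewer than 80% of members had a sequence. Depth limits single genes most at D4 for H3K4me3 and at D0 for H3K27ac.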

Other observations

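Some members are best known from neurons rather than fibroblasts; they were chosen here after their values were seen. Grin3a and Grik1, subunits of glutamate receptors, had 6.41, 3.97 and 3.36 RPM and 7.52, 6.13 and 6.28 RPM of H3K4me3 on days 0, 4 and 8. Ctnna2, the catenin of neuronal junctions, had 6.34, 6.49 and 5.68 RPM, and Brinp1, an inhibitor of neural proliferation, 9.82, 9.38 and 9.5. Grin3a at D8 was 0.523 of its D0 level with intervals apart (5.09 to 7.97 RPM at D0 and 2.78 to 4.02 at D8), and the other members of this set lay closer to D0. H3K27me3 at Brinp1 was 1.96, 2.49 and 4.10 RPM, and at Grin3a 3.91, 3.90 and 5.15 RPM.

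A pair of members are imprinted genes, also chosen after their values were seen. Dlk1, a transmembrane regulator of preadipocytes, had 6.98, 2.16 and 4.80 RPM of H3K4me3 and 2.31, 3.92 and 3.98 RPM of H3K27me3. Zdbf2 had 6.73, 2.16 and 4.83 RPM of H3K4me3 and 3.13, 4.66 and 4.67 RPM of H3K27me3. In each, H3K4me3 was lowest on day 4, as in 78 of the 132 members. As point values, H3K27me3 was higher at both later stages than at D0, but the intervals overlapped that of D0 in both genes.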
